A study of Homo sapiens with 18 samples.

Results

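ZIC1, ZIC2, ZIC4 and ZIC5 encode zinc finger transcription factors of the ZIC family. They were taken by gene symbol from the deposited table, where each had 1 row, so that 4 of the 37550 rows of the table are described here. All 4 were among the 17033 genes with at least 1 TPM (an abundance scaled for transcript length and for the total of the library) in at least 2 libraries, the genes that were tested. The family's remaining human member is not analysed here.

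The measurements were bulk RNA sequencing of 18 poly-A libraries from H1, an established wild-type human pluripotent stem cell line, in 9 groups of 2 biological replicates. They comprise the undifferentiated line on day 0 (hPSC), anterior (aNE) and posterior (pNE) neural ectoderm at day 2, and cells of each origin kept until day 4 in forebrain medium (aNE_T, pNE_T), midbrain medium (aNE_M, pNE_M) or hindbrain medium (aNE_H, pNE_H). All differentiated groups had received A8301 at 1 µM, which inhibits TGF-beta-type receptors, LDN193189 at 100 nM, which inhibits BMP receptors, trametinib at 250 nM, which inhibits MEK, and C59 at 1 µM, a porcupine inhibitor that stops WNT export, on day 1. On day 2, A8301, LDN193189 and thiazovivin at 1 µM, a survival-promoting ROCK inhibitor, were given to both origins. C59 at 1 µM was added for aNE, and TTNPB at 50 nM (a retinoic acid receptor agonist), FGF2 at 20 ng/mL and XAV939 at 1 µM (a tankyrase inhibitor that lowers WNT signalling) for pNE. Forebrain medium on day 3 held XAV939 at 1 µM, LDN193189 at 100 nM and FGF2 at 20 ng/mL, and the contents of the midbrain and hindbrain media are not known here. Day-2 groups had been plated at 37500 cells per cm2, whereas the density of day-4 groups had been 75000 per cm2 in the anterior and 150000 per cm2 in the posterior origin, so that origin and density cannot be told apart at day 4. All libraries came from the same cell line, and TPM keep no record of read number, so the depth behind each value is unknown.

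ZIC proteins bind DNA through a run of C2H2 zinc fingers that resembles the one of the GLI factors, the transcriptional effectors of hedgehog signalling. In the vertebrate embryo, ZIC genes act in the early neural plate, at its border, in the dorsal neural tube and in the neural crest. Loss of ZIC2 function is a known cause of holoprosencephaly, a failure of the forebrain to divide, and deletions that take in ZIC1 and ZIC4 have been linked to Dandy-Walker malformation of the cerebellum.

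The family lies in the genome as divergent pairs. On GRCh38, RefSeq places ZIC1 at chr3:147409365-147416719 on the plus strand and ZIC4 at chr3:147386046-147406543 on the minus strand, with 2822 bases between their 5′ ends. ZIC2 lies at chr13:99981784-99986765 on the plus strand and ZIC5 at chr13:99962964-99971909 on the minus strand, with 9875 bases between their 5′ ends. In GENCODE 29, the gene spans of ZIC1 and ZIC4, introns included, overlap over 13439 bases, whereas the spans of ZIC2 and ZIC5 do not overlap. No source used here says if strand was taken into account. Reads from transcript sequence that ZIC1 and ZIC4 have in common may therefore have been shared between them.

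The coding sequence of 1 zinc finger is shown because the members are alike there. It is the middle of 3 fingers that a search for the C2H2 pattern found, shown for 3 of the members and read 5′ to 3′ from the GENCODE 29 transcripts, and capitals mark bases that differ from ZIC1.
ZIC1: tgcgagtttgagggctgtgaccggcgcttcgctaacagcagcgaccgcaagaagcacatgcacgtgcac
ZIC2: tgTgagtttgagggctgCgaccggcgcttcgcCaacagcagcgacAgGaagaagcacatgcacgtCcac
ZIC5: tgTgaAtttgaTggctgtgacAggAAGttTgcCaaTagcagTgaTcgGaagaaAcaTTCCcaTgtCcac
Over these 69 bases, ZIC2 differed from ZIC1 at 6 positions, an identity of 91.3%, whereas ZIC5 differed at 20 positions, an identity of 71%. None of the 23 codons encoded another residue in ZIC2, and 3 did in ZIC5. The transcripts as a whole shared little sequence. Cut into runs of 31 bases, 97.6% of the sequence of ZIC1, 99.1% of ZIC2, 95.9% of ZIC4 and 99.2% of ZIC5 occurred in no other gene of GENCODE 29. ZIC1 and ZIC4 shared 149 such runs, ZIC1 and ZIC2 shared 15, and ZIC2 and ZIC5 shared 13. ZIC4 shared a further 209 with its antisense transcript ZIC4-AS1, and values of ZIC4 are uncertain to that extent.

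ZIC1 and ZIC4 had nearly the same order of levels over the groups, and both were low in undifferentiated cells and highest in posterior cells kept in midbrain medium. ZIC2 and ZIC5 had at least 1 TPM in every library and were lowest in posterior cells kept in hindbrain medium.

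**Figure D1:**
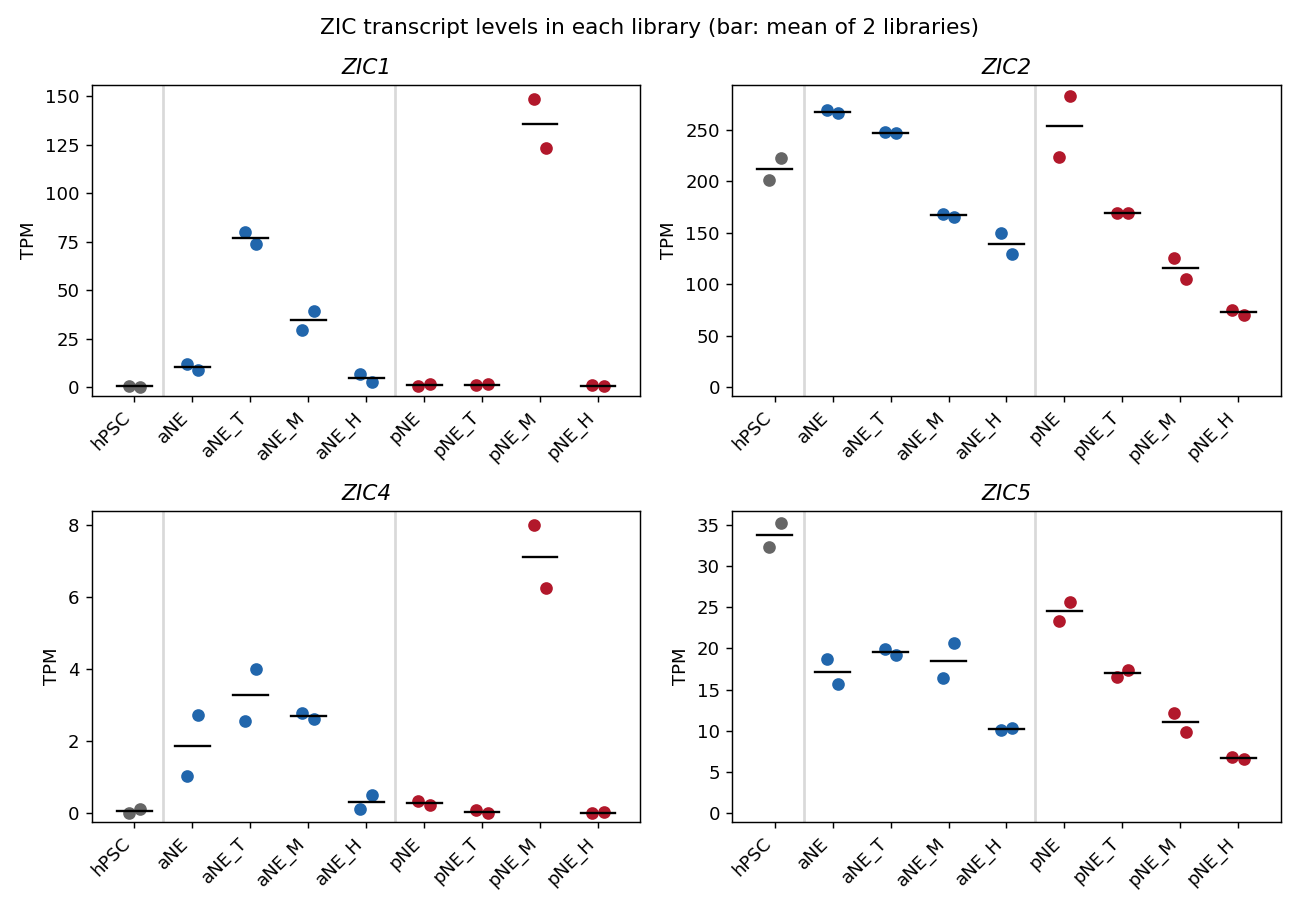
TPM of ZIC1, ZIC2, ZIC4 and ZIC5 (vertical axes, linear, a separate scale for each gene) in the 18 libraries by group (horizontal axes). Points are single libraries (grey for hPSC, blue for aNE origin, red for pNE origin) and bars are means of 2 libraries. ZIC1 and ZIC4 peak in pNE_M, and ZIC2 and ZIC5 are lowest in pNE_H.

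ZIC1, a regulator of dorsal neural tube and cerebellar progenitors, had 0.779 and 0.273 TPM in the hPSC libraries and 12.1 and 9.09 TPM in aNE. In pNE it had 0.928 and 1.82 TPM. At day 4 of the anterior origin, it had 80.0 and 73.9 TPM in forebrain medium, 29.4 and 39.5 TPM in midbrain medium and 6.93 and 3.01 TPM in hindbrain medium. These 3 groups did not overlap, and the order was forebrain, midbrain, hindbrain. At day 4 of the posterior origin, it had 1.05 and 1.56 TPM in forebrain medium, 148 and 123 TPM in midbrain medium and 1.08 and 0.660 TPM in hindbrain medium. ZIC1 was high in 1 of the 3 posterior groups of day 4, and forebrain medium, in which the anterior cells had the most, left the posterior cells near the level of hPSC. Its rank among the 17033 tested genes ran from the 11.4th percentile in hPSC to the 93.5th in pNE_M.

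ZIC4, the divergent partner of ZIC1 and a cerebellar progenitor gene, was much less abundant. It was listed at 0 and 0.112 TPM in hPSC, at 1.02 and 2.74 TPM in aNE, and at 0.333 and 0.219 TPM in pNE. The anterior libraries of day 4 had 2.56 and 4.02 TPM in forebrain, 2.79 and 2.62 TPM in midbrain and 0.103 and 0.514 TPM in hindbrain medium. The posterior libraries had 0.0824 and 0 TPM in forebrain, 8.01 and 6.26 TPM in midbrain and 0 and 0.0297 TPM in hindbrain medium. ZIC4 reached 1 TPM in 8 of 18 libraries, those of aNE, aNE_T, aNE_M and pNE_M, and 3 libraries were listed at 0.

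ZIC2, which is active in the embryonic forebrain and in pluripotent cells, was the most abundant member on the TPM scale in every group except pNE_M. It had 201 and 222 TPM in hPSC, 269 and 266 TPM in aNE, and 224 and 283 TPM in pNE. At day 4 the anterior libraries had 247 and 247 TPM in forebrain, 168 and 166 TPM in midbrain and 150 and 129 TPM in hindbrain medium, and the posterior libraries had 169 and 169, 126 and 105, and 75.3 and 70.0 TPM in the same order. Within each origin, forebrain medium was highest and hindbrain medium lowest, with no overlap between the 3 media. The anterior midbrain and hindbrain groups were nevertheless not separated by the test described below (adjusted p = 0.152, limma). In each medium the posterior libraries lay below the anterior ones.

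ZIC5, the divergent partner of ZIC2 and a gene with a known role in mouse neural crest, was highest in hPSC with 32.3 and 35.3 TPM. It had 18.7 and 15.7 TPM in aNE and 23.3 and 25.7 TPM in pNE. At day 4 the anterior libraries had 19.9 and 19.2 TPM in forebrain, 16.3 and 20.6 TPM in midbrain and 10.1 and 10.3 TPM in hindbrain medium. The posterior libraries had 16.6 and 17.4, 12.1 and 9.87, and 6.78 and 6.57 TPM. Posterior cells had the order seen for ZIC2, whereas anterior cells in forebrain and midbrain medium overlapped.

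The members differed in how far they moved. Between the lowest and the highest group mean, ZIC1 spanned 6.50 on the log2(TPM + 1) scale, more than 99.6% of tested genes, and ZIC4 spanned 2.99, more than 93.2%. ZIC5 spanned 2.18 and ZIC2 1.87, more than 85.5% and 80.4% of tested genes. The SD between libraries of a group on this scale was 0.342 for ZIC1, 0.278 for ZIC4, 0.124 for ZIC5 and 0.121 for ZIC2. The pseudocount of 1 TPM compresses the range of ZIC4, whose values were mostly near or under it.

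Group differences are given on the log2(TPM + 1) scale with the SE of a limma fit to all libraries, and Benjamini-Hochberg adjustment of p-values ran over every tested gene. A call of higher or lower required an adjusted p under 0.05 and a log2 difference of at least 1 in size. Such differences understate the change of genes near 1 TPM. In bulk RNA, a change in the number of cells that express a gene cannot be told apart from a change in RNA per cell.

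The question of the day-2 comparisons is how the early ectoderm of each origin differs from undifferentiated cells and how the origins differ from each other. From hPSC to aNE, 2 of the 4 members were called higher and none lower, where 13.5% of all tested genes were called. ZIC1 rose by 2.93 ± 0.30 (adjusted p = 6.87e-06, limma) and ZIC4 by 1.38 ± 0.28 (adjusted p = 0.00141). The value for ZIC4 was 0.94 without aNE replicate 2, which is under the fold requirement. ZIC5 was 1.96-fold lower in aNE by group means, a log2 difference of -0.94 ± 0.13 (adjusted p = 7.28e-05) that missed the fold requirement, and ZIC2 was 1.26-fold higher (adjusted p = 0.027). With median-ratio scaling of the libraries, ZIC5 reached -1.03.

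From hPSC to pNE, none of the 4 members was called, against 12.9% of tested genes. ZIC1 differed by 0.63 ± 0.30 (adjusted p = 0.122, limma), and with a pseudocount of 0.1 TPM this became 1.29 with an adjusted p of 0.0404. ZIC5 was 1.38-fold lower in pNE (adjusted p = 0.0141). The comparisons of aNE and pNE share the hPSC libraries. Between the origins at day 2, ZIC1 was 7.71-fold lower in pNE than in aNE, a log2 difference of -2.30 ± 0.30 (adjusted p = 0.000196). ZIC4 was lower by a log2 difference of -1.11 ± 0.28 (adjusted p = 0.0169), and these were the 2 members called among the 3.85% of tested genes that were. The call of ZIC4 was lost without aNE replicate 2, which gave -0.67, and also without pNE replicate 1 (-1.17) or pNE replicate 2 (-1.04), where the adjusted p passed 0.05. ZIC2 differed by -0.09 ± 0.11 (adjusted p = 0.695). ZIC5 was higher in pNE by 0.49 ± 0.13 (adjusted p = 0.0218), which missed the fold requirement, and neither was called.

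The day-4 comparisons set the cells of each origin in each regional medium against the day-2 cells of that origin. Medium changed together with day of culture and plating density here, so these cannot be told apart. In anterior cells ZIC1 was called in all 3 media. In forebrain medium ZIC1 rose 7.27-fold from aNE, by 2.76 ± 0.30 on the log2 scale (adjusted p = 1.65e-05, limma), and it was the 1 member called, where 9.03% of tested genes were. In midbrain medium it rose 3.25-fold, by 1.61 ± 0.30 (adjusted p = 0.0011), again as the 1 member called, where 12.0% of tested genes were. ZIC4 differed from aNE by 0.62 ± 0.28 in forebrain medium and 0.43 ± 0.28 in midbrain medium, and neither difference was called. Without aNE replicate 2, the forebrain value of ZIC4 was 1.06 with an adjusted p of 0.0146. In hindbrain medium ZIC1 and ZIC4 were called lower, where 10.1% of tested genes were called. The differences were -1.03 ± 0.30 for ZIC1 (adjusted p = 0.0208) and -1.09 ± 0.28 for ZIC4 (adjusted p = 0.00901). Both calls were lost when single libraries were left out. That of ZIC1 was lost without aNE replicate 1 (-0.84) or aNE_H replicate 2 (-0.54) and with a pseudocount of 0.1 TPM (adjusted p = 0.0678), and that of ZIC4 without aNE replicate 2 (-0.65) or aNE_H replicate 1 (-0.86). ZIC2 was 1.60-fold lower than in aNE in midbrain medium (adjusted p = 0.000386) and 1.92-fold lower in hindbrain medium (adjusted p = 3.16e-05), both short of the fold requirement. Without aNE_H replicate 1 the hindbrain difference of ZIC2 was -1.05. ZIC5 differed from aNE by -0.70 ± 0.13 in hindbrain medium (adjusted p = 0.00103), also short of the fold requirement. In forebrain and midbrain medium ZIC5 differed by 0.18 ± 0.13 and 0.10 ± 0.13, and neither passed the p threshold.

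Posterior cells changed all 4 members in midbrain medium, in opposite directions. ZIC1 rose 98.9-fold from pNE by group means, or by 5.87 ± 0.30 on the log2 scale (adjusted p = 9.89e-09, limma), and ZIC4 rose by 2.67 ± 0.28 (adjusted p = 6.81e-06). ZIC2 fell 2.20-fold, with a log2 difference of -1.12 ± 0.11 (adjusted p = 4.38e-06), and ZIC5 fell 2.23-fold, with -1.09 ± 0.13 (adjusted p = 2.01e-05). The share of tested genes called in this comparison was 12.7%. The falls lay near the fold requirement. Without pNE replicate 2 or pNE_M replicate 2 the value of ZIC2 was -0.96 or -0.99, and without pNE_M replicate 2 that of ZIC5 was -0.96.

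In hindbrain medium, ZIC2 and ZIC5 were called lower than in pNE and neither of the other members was called, where 12.3% of tested genes were. ZIC2 fell 3.49-fold, by -1.78 ± 0.11 (adjusted p = 6.33e-08, limma), and ZIC5 fell 3.67-fold, by -1.73 ± 0.13 (adjusted p = 2.9e-07). These were the largest falls of ZIC2 and ZIC5 over the 18 pairs of groups compared. ZIC1 differed from pNE by -0.33 ± 0.30 and ZIC4 by -0.33 ± 0.28. With a pseudocount of 0.1 TPM, ZIC4 was called lower (-1.71, adjusted p = 0.0494), with values of 0 and 0.0297 TPM behind it. In forebrain medium none of the members was called, where 10.2% of tested genes were. ZIC1 differed from pNE by -0.03 ± 0.30 and ZIC4 by -0.29 ± 0.28, whereas ZIC2 had -0.57 ± 0.11 (adjusted p = 0.0015) and ZIC5 -0.50 ± 0.13 (adjusted p = 0.00845).

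**Figure D2:**
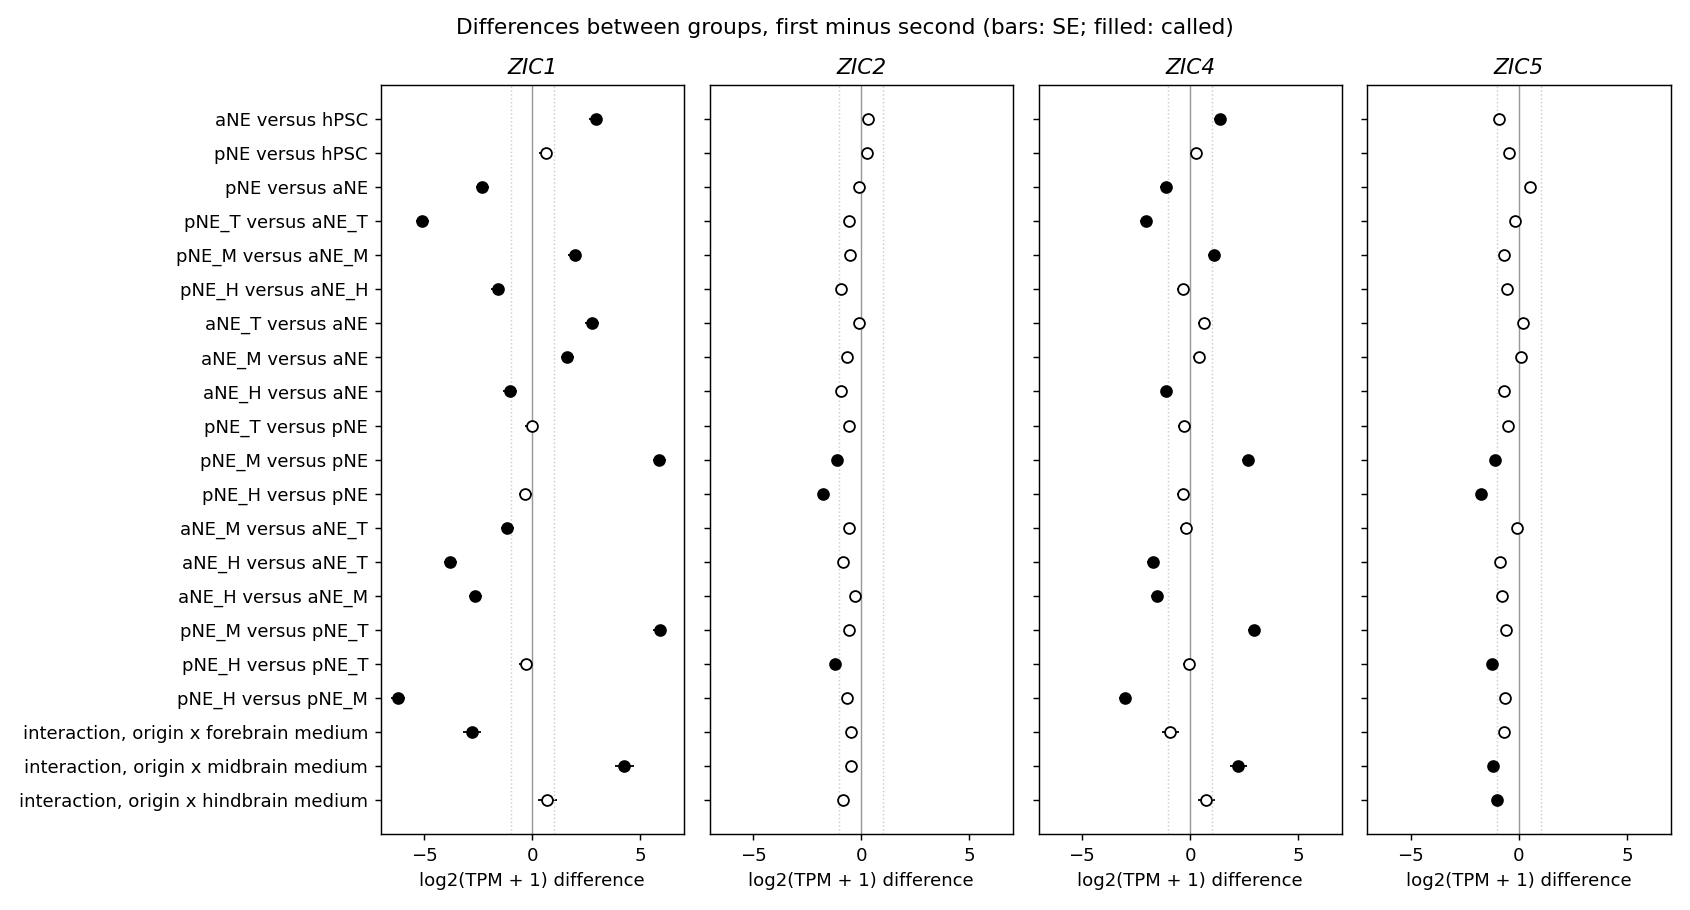
Differences on the log2(TPM + 1) scale (horizontal axes, first group minus second) for each member in the 18 pairs of groups and the 3 interactions (vertical axis). Bars are SE, filled points are called, and dotted lines mark -1 and 1. ZIC1 extends from -6.20 to 5.89 over the pairs, whereas ZIC2 stays between -1.78 and 0.34.

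Among the media of 1 origin, ZIC1 was called in every pair except hindbrain against forebrain medium of the posterior origin. In anterior cells it was 2.23-fold lower in midbrain than in forebrain medium (-1.15 ± 0.30, adjusted p = 0.0107, limma), and no other member was called there, where 10.1% of tested genes were. That call was lost without aNE_T replicate 1, where the adjusted p was 0.0618, and without aNE_M replicate 1 (-0.94). In hindbrain medium ZIC1 was 15.5-fold lower than in forebrain medium and 6.94-fold lower than in midbrain medium, and ZIC4 was called lower in both comparisons too, by -1.71 ± 0.28 and -1.52 ± 0.28. The aNE_H libraries differed in ZIC1 (6.93 and 3.01 TPM), and with single libraries left out the log2 difference of ZIC1 ran from -4.28 to -3.30 against forebrain and from -3.13 to -2.15 against midbrain medium. The shares of tested genes called were 6.60% for hindbrain against forebrain medium and 4.92% for hindbrain against midbrain medium. In posterior cells ZIC1 was 104-fold higher in midbrain than in forebrain medium (5.89 ± 0.30, adjusted p = 1.22e-08), and ZIC4 was higher by 2.96 ± 0.28, where 8.60% of tested genes were called. From midbrain to hindbrain medium ZIC1 differed by -6.20 ± 0.30 and ZIC4 by -2.99 ± 0.28, where 5.99% of tested genes were called. ZIC2 and ZIC5 were the 2 members called between hindbrain and forebrain medium of the posterior origin, 2.33-fold and 2.54-fold lower, where 5.03% of tested genes were called.

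The origins were also compared within each medium. In forebrain medium, ZIC1 was lower in posterior than in anterior cells (-5.09 ± 0.30, adjusted p = 5.54e-08, limma) and ZIC4 was lower by -2.02 ± 0.28 (adjusted p = 0.000126). These were the 2 members called, where 7.77% of tested genes were. In midbrain medium the direction was the opposite. ZIC1 was 3.94-fold higher in posterior cells (1.96 ± 0.30, adjusted p = 0.000503) and ZIC4 2.63-fold higher (1.13 ± 0.28, adjusted p = 0.0127), where 5.74% of tested genes were called. The call of ZIC4 was lost with a pseudocount of 0.1 TPM (adjusted p = 0.181), without aNE_M replicate 2 (adjusted p = 0.0709) and without pNE_M replicate 1 (0.97). In hindbrain medium ZIC1 was called lower in posterior cells (-1.60 ± 0.30, adjusted p = 0.00186), where 6.83% of tested genes were called, and no other member was. ZIC2 was 1.46-fold, 1.45-fold and 1.92-fold lower in posterior cells in forebrain, midbrain and hindbrain medium, with adjusted p of 0.00301, 0.00421 and 4.52e-05 and no difference that met the fold requirement. Without aNE_H replicate 2 the hindbrain value of ZIC2 was -1.04. ZIC5 differed by -0.20 ± 0.13 (adjusted p = 0.336) in forebrain medium. It was lower in posterior cells by -0.70 ± 0.13 (adjusted p = 0.00179) in midbrain and -0.54 ± 0.13 (adjusted p = 0.00812) in hindbrain medium. Neither of these met the fold requirement.

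The interaction asked whether the change from day 2 to day 4 in a medium differed between the origins, as the change of posterior cells minus that of anterior cells. In forebrain medium it was called for ZIC1 alone (-2.79 ± 0.43, adjusted p = 0.000643, limma), where 7.14% of tested genes were called. For ZIC5 it was -0.69 ± 0.18 (adjusted p = 0.0242), short of the fold requirement. ZIC1 had risen by 2.76 in the anterior cells and differed by -0.03 in the posterior ones. In midbrain medium it was called for 3 members, where 7.02% of tested genes were. The values were 4.26 ± 0.43 for ZIC1 (adjusted p = 1.72e-05), 2.23 ± 0.39 for ZIC4 (adjusted p = 0.00166) and -1.19 ± 0.18 for ZIC5 (adjusted p = 0.000597), so that ZIC1 and ZIC4 gained more in posterior cells. ZIC5 fell by 1.09 in posterior cells and differed by 0.10 ± 0.13 in anterior cells, which was not called. ZIC2 had -0.45 ± 0.16 (adjusted p = 0.0802). In hindbrain medium it was called for ZIC5 (-1.03 ± 0.18, adjusted p = 0.00154), where 7.83% of tested genes were. This value was -0.91 without aNE replicate 2 and -0.96 without pNE replicate 2. ZIC2 had -0.84 ± 0.16 there (adjusted p = 0.00238), and -1.01 without pNE replicate 1. For ZIC4, which was not called in forebrain or hindbrain medium, leaving out aNE replicate 2 gave -1.36 in forebrain medium (adjusted p = 0.0298) and leaving out aNE replicate 1 gave 1.20 in hindbrain medium (adjusted p = 0.0444).

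Over the 18 pairs of groups, ZIC1 was called higher in 6 and lower in 8, and ZIC4 higher in 4 and lower in 6. ZIC2 and ZIC5 were each called lower in 3 and higher in none, and in 11 further pairs each passed the p threshold without the fold. The share of all tested genes called in a pair ran from 3.85% (pNE against aNE) to 13.5% (aNE against hPSC). These pairs share groups and are not independent of each other.

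The order of the group means showed where neighbouring groups could not be separated. For ZIC1 the order was pNE_M, aNE_T, aNE_M, aNE, aNE_H, pNE, pNE_T, pNE_H and hPSC. The difference between pNE_M and aNE_T, 0.81 ± 0.30, did not pass the p threshold (adjusted p = 0.0554, limma), and nor did any between neighbours from pNE downwards, whereas each step between aNE_T and pNE did. ZIC4 was separated below pNE_M (adjusted p = 0.0179) and between aNE and aNE_H (adjusted p = 0.00901), with aNE_T, aNE_M and aNE not separated from each other. For ZIC2, whose order began with aNE, pNE, aNE_T and hPSC, the neighbours separated were hPSC and pNE_T (adjusted p = 0.0278) and pNE_M and pNE_H (adjusted p = 0.000946), and aNE and hPSC, which are not neighbours, differed as given above. ZIC5 was separated between hPSC and pNE (adjusted p = 0.0141), between pNE_T and pNE_M (adjusted p = 0.00367) and between aNE_H and pNE_H (adjusted p = 0.00812). Over all 36 pairs of groups, between 13.6% and 52.7% of tested genes passed this p threshold.

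The make-up of the family's transcripts was compared on the TPM scale, which corrects for transcript length. ZIC2 made up 86.0% of the summed TPM of the 4 members in hPSC and 90.0% in aNE (means of 2 libraries). It made up 71.2% in aNE_T and 75.1% in aNE_M, where ZIC1 made up 22.2% and 15.4%. In pNE_M, ZIC1 made up 50.5% and ZIC2 42.8%, and ZIC1 exceeded ZIC2 in both libraries. In the other posterior groups ZIC2 made up between 90.2% and 90.6%. ZIC5 made up 13.7% in hPSC and 4.08% in pNE_M, and ZIC4 at most 2.64%. The summed level was highest in aNE_T, at 347 ± 4.40 TPM, and lowest in pNE_H, at 80.2 ± 4.20 TPM (mean ± SD, n = 2). In pNE_M the sum was 269 ± 35.4 TPM and in pNE it was 279 ± 43.9 TPM, so that these groups had sums within their spread and a different make-up. The ratio of ZIC2 to ZIC5 was 6.22 and 6.31 in the hPSC libraries and lay above that in all others, from 8.02 in an aNE_M library to 16.9 in an aNE library.

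**Figure D3:**
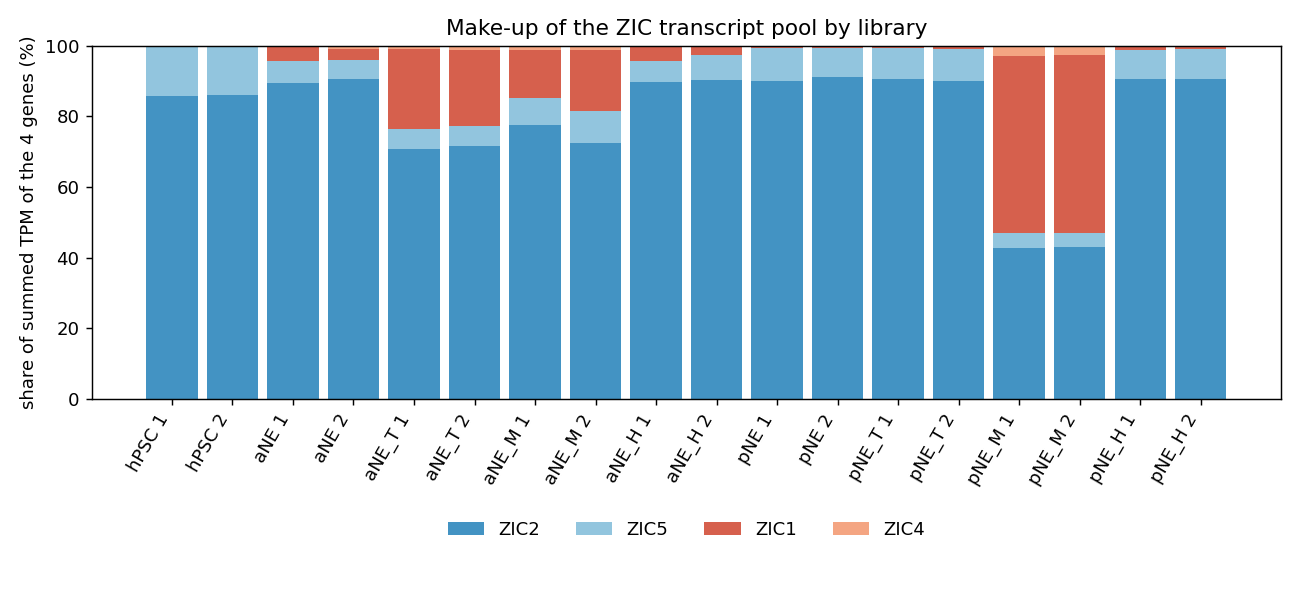
Share of each member in the summed TPM of the 4 members (vertical axis, percent) in each of the 18 libraries (horizontal axis, group and replicate number). ZIC1 makes up 50.5% on average in pNE_M and 22.2% in aNE_T, and ZIC2 has the largest share in every library outside pNE_M.

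As a description over the 9 group means of log2(TPM + 1), the members of a genomic pair varied together. Pearson's r was 0.977 between ZIC1 and ZIC4 (Spearman's rho 0.95) and 0.839 between ZIC2 and ZIC5 (rho 0.733). Between members of different pairs, r lay between -0.128 and 0.0829. The points share libraries and the TPM scale, and ZIC1 and ZIC4 also share sequence as given above. Of the other genes, 12447 with a highest group mean of at least 5 TPM were ranked by the same r. Closest to ZIC1 were SHANK3 (0.959) and PHC3 (0.948), and closest to ZIC4 were PHC3 (0.954) and SAFB (0.927), so that ZIC1 and ZIC4 were closer to each other than to any of these. Closest to ZIC2 were SRSF5 (0.984), CEP170B (0.974) and SNX7 (0.967), and closest to ZIC5 were SLC2A8 (0.975), PGBD5 (0.964) and MFSD10 (0.959). All of these values lay above the 0.839 between ZIC2 and ZIC5, unlike for ZIC1 and ZIC4. The likeness is one of shape and not of size. SHANK3 lay between 8.10 and 20.3 TPM in all libraries, against 0.273 to 148 TPM for ZIC1, and SRSF5 between 151 and 219 TPM.

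The promoters are shown because the genes of each pair start near each other. Each is 300 bases of GRCh38.p14 from RefSeq, on the strand of the gene and read 5′ to 3′, and capitals mark CG dinucleotides. The window runs from 250 bases before to 50 bases after the outermost 5′ end that RefSeq gives the gene. The window of ZIC1 is chr3:147409115-147409414 (plus), that of ZIC4 chr3:147406494-147406793 (minus), that of ZIC2 chr13:99981534-99981833 (plus) and that of ZIC5 chr13:99971860-99972159 (minus).
ZIC1: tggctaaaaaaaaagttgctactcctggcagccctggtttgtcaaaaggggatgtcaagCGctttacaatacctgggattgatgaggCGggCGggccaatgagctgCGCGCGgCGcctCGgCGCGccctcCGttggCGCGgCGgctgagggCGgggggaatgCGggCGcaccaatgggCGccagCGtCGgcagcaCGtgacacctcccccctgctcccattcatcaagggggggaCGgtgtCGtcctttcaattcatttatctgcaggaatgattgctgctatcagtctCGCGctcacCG
ZIC4: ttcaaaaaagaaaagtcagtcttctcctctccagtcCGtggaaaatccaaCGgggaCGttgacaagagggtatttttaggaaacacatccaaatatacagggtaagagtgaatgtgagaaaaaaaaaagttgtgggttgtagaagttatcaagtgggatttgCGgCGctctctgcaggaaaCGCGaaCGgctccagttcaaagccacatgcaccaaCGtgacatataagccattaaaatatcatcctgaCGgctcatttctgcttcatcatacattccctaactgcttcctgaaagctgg
ZIC2: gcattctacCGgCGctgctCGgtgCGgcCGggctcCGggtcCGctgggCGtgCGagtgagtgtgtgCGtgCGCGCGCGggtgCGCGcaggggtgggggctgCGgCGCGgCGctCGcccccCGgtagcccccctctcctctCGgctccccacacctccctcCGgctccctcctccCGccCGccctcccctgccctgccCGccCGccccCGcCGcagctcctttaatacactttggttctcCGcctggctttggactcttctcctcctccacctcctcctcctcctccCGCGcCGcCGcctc
ZIC5: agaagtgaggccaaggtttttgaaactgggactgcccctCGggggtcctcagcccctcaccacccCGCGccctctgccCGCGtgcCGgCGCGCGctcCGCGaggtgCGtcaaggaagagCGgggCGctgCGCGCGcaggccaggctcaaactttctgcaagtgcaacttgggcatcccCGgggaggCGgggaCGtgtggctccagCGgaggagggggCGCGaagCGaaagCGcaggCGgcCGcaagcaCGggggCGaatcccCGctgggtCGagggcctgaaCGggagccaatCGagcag
ZIC2 and ZIC5 had 35 and 33 CG dinucleotides, more than 85.9% and 82.8% of all 35116 promoter windows of this length. ZIC1 had 26, more than 69.9% of windows, and ZIC4 had 10, more than 43.6%. The base composition followed the same order, with 75% G or C in ZIC2, 70.3% in ZIC5, 61.3% in ZIC1 and 43.3% in ZIC4. The motif CCAAT, searched on both strands, occurred 2 times in ZIC1, 1 time in ZIC5 and not in these windows of ZIC2 and ZIC4, and 34.6% of all windows held it. The motif TATAAA occurred in none of the 4 windows and in 11.5% of all windows. RefSeq lists further starts for ZIC4 and ZIC5, so the values of these 2 genes depend on the window taken. The other windows of ZIC4 held 21, 2 and 7 CG dinucleotides and CCAAT 2, 1 and 3 times. Those of ZIC5 held 18 and 22 CG dinucleotides and CCAAT 1 and 4 times. Which start was used cannot be read from values per gene.

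GLI-related genes, whose fingers resemble those of ZIC, were looked at for the steps where ZIC1 rose most in each origin. Of 6 GLI-related genes listed for this comparison (GLI1, GLI2, GLI3, GLIS1, GLIS2 and GLIS3), 5 were tested. From pNE to pNE_M, where ZIC1 rose most within an origin, 1 was called higher and none lower, where 12.7% of all tested genes were called. This was GLI3, the main repressor of the hedgehog pathway, with 21.3 and 27.8 TPM in pNE and 80.4 and 77.5 TPM in pNE_M (1.66 ± 0.14, adjusted p = 7.39e-07, limma). The median difference of the list was 0.16, against -0.06 for all tested genes. From aNE to aNE_T, where 9.03% of all tested genes were called, none was called higher and 2 lower, GLI1 (-2.34 ± 0.47, adjusted p = 0.00203), a transcriptional target of hedgehog signalling, and GLIS3 (-1.29 ± 0.22, adjusted p = 0.000648). From hPSC to aNE and to pNE, GLI3 and GLIS3 were called higher in each, with GLI3 at 1.92 ± 0.14 in aNE and 1.24 ± 0.14 in pNE. The call of GLIS3 in pNE (1.01 ± 0.22) was lost with median-ratio scaling (0.99) and quantile normalization (0.87), and without hPSC replicate 1 (0.99) or pNE replicate 2 (0.75). GLI2, an activator of the pathway, lay between 16.6 and 37.1 TPM in all libraries.

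Among genes of the dorsal neural tube and roof plate, PAX3, PAX7, MSX1 and MSX2 were called higher in midbrain medium in each origin. In hindbrain medium, 4 genes were called higher in the anterior and 3 in the posterior origin, and in forebrain medium 1 and none. The shares of all tested genes called were 12.0% and 12.7% in midbrain medium, anterior and posterior. They were 10.1% and 12.3% in hindbrain medium and 9.03% and 10.2% in forebrain medium. Of the 10 genes listed, 6 were tested. Group means were under 1 TPM for 5 of the 10 in pNE_M and 6 in aNE_M. LMX1A, WNT1 and WNT3A were at 0 in both pNE_M libraries. From pNE to pNE_M, 4 were called higher and 1 lower, with a median of 3.37 against -0.06 for all tested genes. MSX1, a BMP target of the dorsal midline, had 0.996 and 0.855 TPM in pNE and 666 and 646 TPM in pNE_M (8.42 ± 0.20, adjusted p = 9.55e-12, limma). MSX2 rose by 4.84 ± 0.17, PAX3, which acts with ZIC1 at the neural plate border, by 4.74 ± 0.22, and PAX7 by 1.99 ± 0.16. The 1 gene that fell, OLIG3, by -1.81 ± 0.20, is named here after its values were seen. From aNE to aNE_M the same 4 genes were called higher, with PAX3 at 0.475 and 0.601 TPM in aNE and 120 and 130 TPM in aNE_M. From aNE to aNE_T, where ZIC1 rose 7.27-fold, 1 was called higher, PAX7 (2.69 ± 0.16, adjusted p = 6.69e-08), and 1 lower, LMX1A (-2.18 ± 0.18, adjusted p = 1.06e-06), and PAX3 had 1.45 and 0.715 TPM in aNE_T. Dorsal genes were also called higher in hindbrain medium, where ZIC1 was not. From aNE to aNE_H, PAX3, PAX7, MSX1 and MSX2 were called higher and LMX1A lower, with a median of 2.67 against 2.59 from aNE to aNE_M. From pNE to pNE_H, PAX3, MSX1 and MSX2 were called higher and OLIG3 lower, with a median of 0.68. PAX3 had 54.2 and 50.3 TPM in aNE_H. High ZIC1 and high PAX3 coincided in aNE_M and pNE_M, and each was high without the other in aNE_T or aNE_H.

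**Figure D4:**
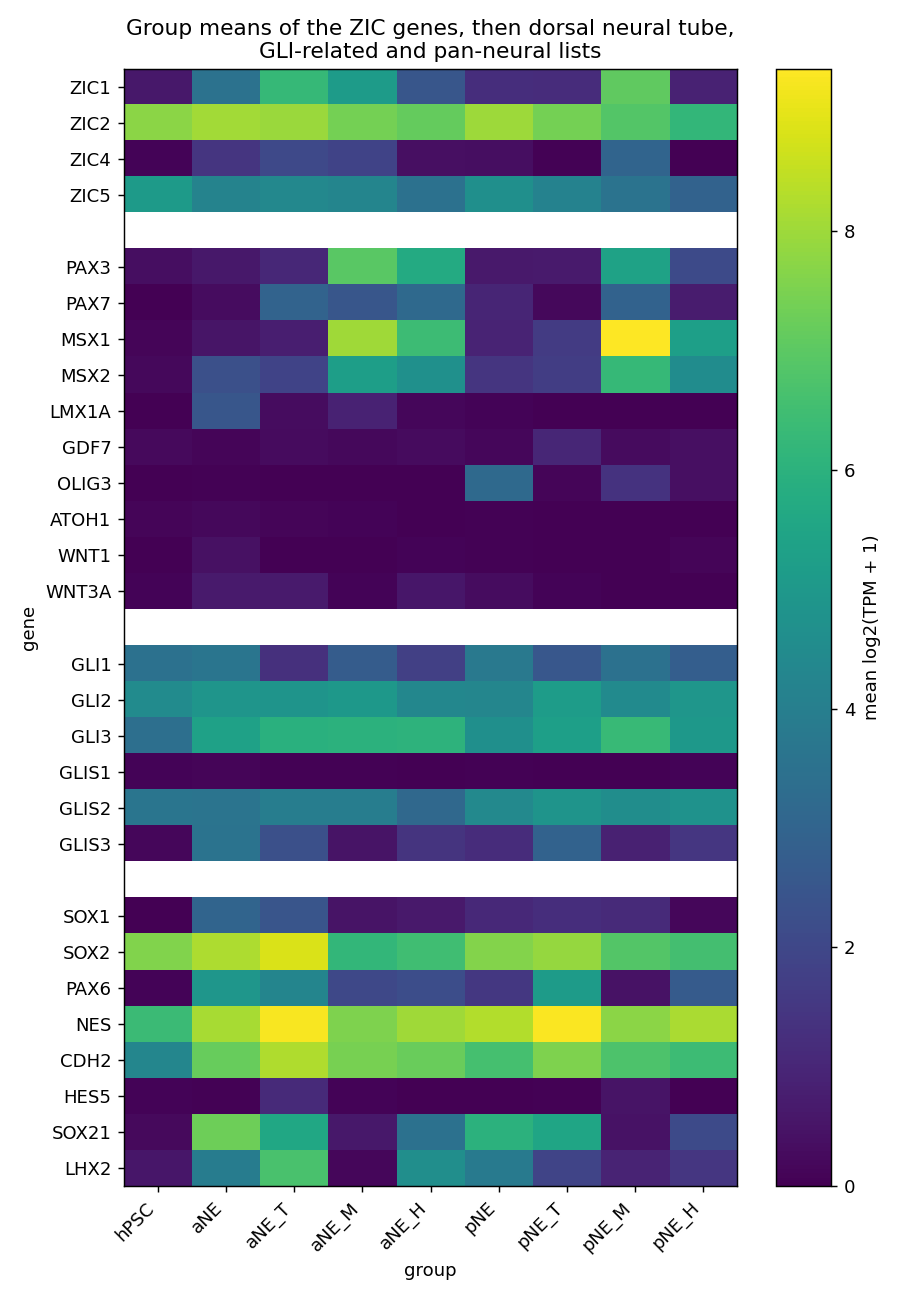
Group means of log2(TPM + 1) (colour scale) for the 4 members, then the dorsal neural tube and roof plate genes, the GLI-related genes and the pan-neural markers (rows), in the 9 groups (columns). ZIC1 is high in aNE_T, aNE_M and pNE_M, whereas PAX3, MSX1 and MSX2 are high in aNE_M, aNE_H and pNE_M. MSX1 and MSX2 are also high in pNE_H.

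The other lists are given for the steps with the largest rise of ZIC1 in each origin, pNE to pNE_M and aNE to aNE_T. Of 7 neural plate border genes, all tested, none was called higher and 5 lower in pNE_M, led by DLX6 (-2.97 ± 0.20) and DLX5 (-2.93 ± 0.15), and none was called higher and 1 lower in aNE_T. Of 8 genes of hedgehog response and ventral neural tube, 6 were tested, with 3 higher and 1 lower in pNE_M and 2 lower in aNE_T. The largest rise was that of HHIP, a hedgehog-binding inhibitor and pathway target (2.86 ± 0.25). Of 7 BMP response genes, all tested, 4 were called higher in pNE_M and none lower, with ID1 at 3.13 ± 0.18 and BAMBI at 1.47 ± 0.13, and 1 was called higher and 1 lower in aNE_T. BMP response genes were called higher in the other posterior media too, where ZIC1 was not called, with 4 higher and 1 lower in pNE_T (median 1.74) and 5 higher and none lower in pNE_H (median 1.61). The medians of these 3 lists in pNE_M were -1.64, 0.74 and 1.24, against -0.06 for all tested genes. In aNE_T, TFAP2C (-1.18) lost its call without aNE replicate 2, HHIP (-0.99) without aNE_T replicate 2, and SMAD7 without aNE replicate 2 (0.73) or aNE_T replicate 1 (0.86).

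The markers of cell types showed that the groups with the most ZIC1 differed in other ways. Of 8 pan-neural markers, all tested, 6 were called higher in aNE and 6 in pNE than in hPSC, and SOX1 and PAX6, early neural transcription factors, had group means of 7.20 and 29.1 TPM in the anterior group against 1.14 and 1.94 TPM in the posterior one. In aNE_T, 4 were called higher than in aNE and 1 lower, and their summed level was 1558 and 1528 TPM. In pNE_M none was called higher than in pNE and 3 lower, SOX21 by -5.57 ± 0.20, LHX2 by -2.93 ± 0.32 and PAX6 by -1.08 ± 0.21, and the summed level was 448 and 425 TPM. The call of PAX6 was lost without pNE replicate 2 (-0.78) or pNE_M replicate 2 (-0.93), and that of HES5 in aNE_T without aNE replicate 2 (0.98). Of 8 neural crest markers, all tested, 6 were called higher in pNE_M than in pNE and 1 lower. SOX8 rose by 4.23 ± 0.15, FOXD3 by 3.64 ± 0.22 and SNAI2 by 2.61 ± 0.18, whereas NGFR fell by 3.59 on the log2 scale. The summed level of the crest markers was 165 and 159 TPM in pNE_M and 144 and 183 TPM in pNE. NGFR alone had 113 and 144 TPM in pNE and 9.32 and 10.1 TPM in pNE_M. In aNE_T, 3 crest markers were called higher and none lower, and the summed level was 173 and 177 TPM. The part of crest-like cells in the level of ZIC1 was not tested.

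Of 7 mesendoderm markers, 5 were tested. In pNE_M, MIXL1 (3.05 ± 0.26) and TBXT (1.33 ± 0.20) were called higher than in pNE and GSC lower. The summed level was 16.1 and 16.5 TPM in pNE_M and 97.7 and 117 TPM in aNE_M, where MIXL1, EOMES and TBXT were called higher than in aNE, and it was 5.91 and 5.67 TPM in aNE_T. In pNE_M 1 of the 7 was at 0 in both libraries. Of 5 surface ectoderm markers, 4 were tested, with none higher and 3 lower in pNE_M and 1 higher and 3 lower in aNE_T. Without pNE_M replicate 2, GRHL2 (-0.85) and KRT7 (-0.98) were no longer called. Of 7 pluripotency markers, all tested, 6 were called lower and none higher in pNE_M, and 4 lower and none higher in aNE_T. Their summed level was 4662 and 4697 TPM in hPSC, 445 and 450 TPM in aNE, 583 and 555 TPM in the pNE libraries, and at most 133 TPM in any day-4 library. The part of these cell types in the levels of the ZIC genes was not tested.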

How the data were processed

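RNA of 18 libraries of the H1 line, 2 in each of 9 groups, was measured by poly-A RNA sequencing. The authors deposited 1 table of TPM values, with a row per gene. The submitters' processing notes name bcl2fastq, FastQC, Trim Galore, kallisto and deepTools and the build hg38, without versions, and the annotation is not given in the sources used here. Replicates were not pooled in the deposited table. Groups came from the sample titles.

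Values were analysed as log2(TPM + 1), with limma 3.58.1 in R 4.3.3. The fit had a mean for every group, 9 residual degrees of freedom and a variance trend, and gave 18 pairs of groups and 3 interactions. Benjamini-Hochberg adjustment and the thresholds are given with the results, and the code was tested on simulated data. P-values are two-sided. Sequences came from RefSeq (GRCh38.p14 promoters, 4 of 4 members matched) and GENCODE 29, which may differ from the annotation the authors used.

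The named genes were the members, up to 4 called genes with the largest difference per list and the 3 genes most like each member, of which a few, and 1 finger sequence, are not reported here. The lists were GLI-related, dorsal neural tube and roof plate, neural plate border, hedgehog response, BMP response, and markers of pluripotent, pan-neural, neural crest, mesendoderm and surface ectoderm cells. Members and lists were chosen with earlier results of these data known. Replicate numbers were not used to pair the samples in the main fit. Alternatives were another pseudocount, other filters on low values, other scalings, no variance trend, a replicate block and leaving out each library in turn.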

Additional observations from a re-analysis of the deposited data

Results flagged for a closer look

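The difference between the 2 origins under the same medium was itself tested, as the interaction of origin and medium in limma. It is the change of posterior cells from day 2 to day 4 minus that of anterior cells on the log2(TPM + 1) scale. Over the 4 members and 3 media, 5 interactions were called. The shares of tested genes called were 7.14%, 7.02% and 7.83% in forebrain, midbrain and hindbrain medium. ZIC5 in forebrain medium (-0.69 ± 0.18, adjusted p = 0.0242, limma) passed the p threshold without the fold. So did ZIC2 in hindbrain medium (-0.84 ± 0.16, adjusted p = 0.00238). For ZIC1 the difference was -2.79 ± 0.43 in forebrain medium (adjusted p = 0.000643), with a rise in both anterior libraries, and 4.26 ± 0.43 in midbrain medium (adjusted p = 1.72e-05), with higher values in both posterior libraries of day 4 than in any other library. For ZIC4 it was 2.23 ± 0.39 in midbrain medium (adjusted p = 0.00166). For ZIC5 it was -1.19 ± 0.18 in midbrain medium (adjusted p = 0.000597) and -1.03 ± 0.18 in hindbrain medium (adjusted p = 0.00154). The hindbrain value of ZIC5 fell short of the fold requirement with median-ratio scaling (-0.99). It also did so without aNE replicate 2 (-0.91) or pNE replicate 2 (-0.96). Plating density changed with origin at day 4, so that density and origin cannot be told apart in these values.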

How the results depend on the processing

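The 4 members gave 84 values, and 7 other settings gave 588 alternative values. Of these, 577 stayed on the same side of the threshold, 11 changed it and 0 reversed direction with a call on either side. Changes of direction between values that were not called were not counted. With a pseudocount of 0.1 TPM, ZIC1 was called higher in pNE than in hPSC (1.29), its calls of aNE_H against aNE (-1.18) and aNE_M against aNE_T (-1.17) and the call of ZIC4 in pNE_M against aNE_M (1.36) were lost, and ZIC4 was called in pNE_H against pNE (-1.71). With median-ratio scaling ZIC1 in aNE_H against aNE (-0.99) and the hindbrain interaction of ZIC5 (-0.99) fell short of the fold, and ZIC5 in aNE against hPSC (-1.03) met it. With quantile normalization ZIC1 (-0.88) and ZIC4 (-0.90) in aNE_H against aNE fell short, and ZIC5 in aNE against hPSC (-1.01) met the fold. No scaling moved the median of all genes by more than 0.0789. In the count of genes called, no setting moved any comparison by more than 1.5 times.

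Leaving out each of the 18 libraries in turn gave 384 values, of which 25 changed the side of the threshold; a group left with 1 library is then assumed to vary like the others. For ZIC1 the range was -1.52 to -0.54 in aNE_H against aNE and -1.36 to -0.94 in aNE_M against aNE_T. For ZIC2 it was -1.05 to -0.83 in aNE_H against aNE, -1.04 to -0.82 in pNE_H against aNE_H, -1.29 to -0.96 in pNE_M against pNE and -1.01 to -0.67 in the hindbrain interaction. For ZIC4 it was 0.94 to 1.83 in aNE against hPSC, -1.55 to -0.67 in pNE against aNE, 0.97 to 1.28 in pNE_M against aNE_M, 0.18 to 1.06 in aNE_T against aNE, -1.53 to -0.65 in aNE_H against aNE, -1.36 to -0.47 in the forebrain and 0.32 to 1.20 in the hindbrain interaction. For ZIC5 it was -1.06 to -0.82 in aNE against hPSC, -1.23 to -0.96 in pNE_M against pNE and -1.15 to -0.91 in the hindbrain interaction. The cause of these changes was not tested.

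With the replicate number as a block, no member call changed, and ZIC1 in pNE_M against pNE stayed at 5.87. Over the 36 pairs of groups, deviations of same-numbered libraries correlated between -0.0896 and 0.0762. Whether same-numbered libraries were grown or processed together cannot be told from these values. TPM keep no read number, so what depth limits cannot be given.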

Other observations

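Genes next to the ZIC pairs were also looked up, within 500000 bases on GRCh38. Around ZIC2 and ZIC5, RefSeq lists 27 other genes, of which 7 had a row under that symbol in the deposited table and 3 were tested. TM9SF2, a gene for a membrane protein, had group means between 61.9 and 83.0 TPM and was called in 0 of the 21 comparisons. PCCA, which encodes a subunit of the mitochondrial propionyl-CoA carboxylase, had group means between 16.1 and 27.8 TPM and was called in 0 of 21, with 25.8 and 21.4 TPM in pNE and 13.9 and 18.3 TPM in pNE_H. CLYBL, a gene for a mitochondrial enzyme, had group means between 2.97 and 8.44 TPM and was called in 2 of 21. Around ZIC1 and ZIC4, RefSeq lists 10 other genes, of which 2 had such a row and 0 were tested. Nothing can be said here of the level of genes without a row.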
